A study of Mus musculus with 2 samples.

Results

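Keratin and cornified envelope genes were examined in 2 RNA immunoprecipitation libraries of RAW 264.7 cells, an established mouse macrophage line. They comprised every symbol of the deposited table that begins with Krt and a digit, with Sprr, or with Lce and a digit, together with Lor, Krtdap, Sfn, Ivl, Sbsn, Dsp, Jup, Perp and Cdh1. This gave 96 of 23924 gene symbols, namely 52 keratins, 39 precursors of the cornified envelope and related proteins, 4 junction genes and Sfn. Flg, which belongs to the same definition, was not among the symbols of the table and so was not analysed here. Both libraries came from cells depleted of mRrp6, the nuclear exosome ribonuclease, and exposed for 12 h to LPS (80 ng/ml), and both used nuclear extracts. The control library, called IgG in the plots, was precipitated with rabbit IgG and the other with an antibody against nucleolin, a nucleolar RNA-binding protein, to find the transcripts that nucleolin targets. The means of depletion is not given in the labels, and cells that kept mRrp6 were not among the libraries. With 1 library per antibody, no difference has a replicate check, and no test or p-value is given.

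Keratins are the intermediate filament proteins of epithelial cells. A filament forms from a type I and a type II keratin in equal parts, and the pair in use marks the kind of epithelium. Krt8 with Krt18 is the pair of simple, single-layered epithelia, Krt5 with Krt14 that of the basal layer of stratified epithelia, Krt1 with Krt10 that of the suprabasal epidermis, and Krt4 with Krt13 that of stratified mucosa. In the outer layers of stratified epithelia, loricrin, small proline-rich proteins and late cornified envelope proteins are cross-linked into the cornified envelope. Macrophages are not an epithelial cell type, and these genes are known as markers of epithelia.

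The genes were seen almost entirely in the control library. At a floor of 0.1 FPKM (fragments per length of transcript, scaled to the size of each library), 21 of the 96 were listed in the control library and 1 in the nucleolin library. The background share, over all genes of the table, was 8.4% in the control library and 7.23% in the nucleolin library, against 21.9% and 1.04% of these genes. The remaining 75 were at exactly 0 in both. The summed level was 2246 FPKM in the control and 11.9 FPKM in the nucleolin library, and the latter was Sfn alone.

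**Figure D1:**
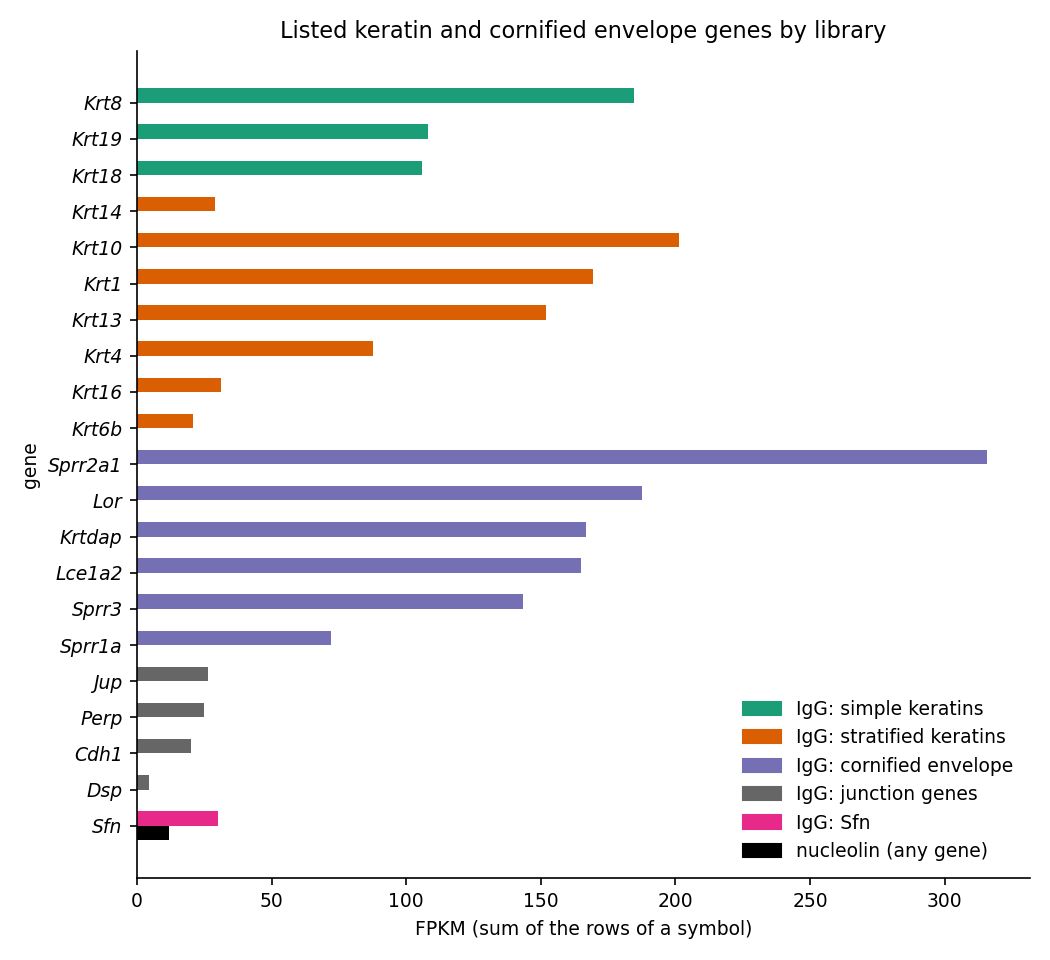
Level in FPKM (horizontal bars, linear axis from 0) of the 21 listed genes, coloured by role for the control library and black for the nucleolin library, 1 library each. The bar of Sprr2a1, 316 FPKM, is the sum of 2 copy rows, and its higher row of 164 FPKM lies below Krt10 at 201 FPKM. Sfn is the single gene with a black bar, at 11.9 FPKM.

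The RefSeq start regions of 4 listed genes are shown because they stand for the groups described here, the simple pair Krt8 and Krt18, the suprabasal Krt10 and the envelope gene Lor. Each run holds 130 bases before and 20 after the annotated start, 5′ to 3′ on the strand of the gene (GRCm38.p6), with matches to 3 motifs on either strand in capitals. The Krt8 run is chr15:102004323-102004472 (minus strand), the Krt18 run chr15:102028086-102028235 (plus), the Krt10 run chr11:99389345-99389494 (minus) and the Lor run chr3:92083123-92083272 (minus).
Krt8: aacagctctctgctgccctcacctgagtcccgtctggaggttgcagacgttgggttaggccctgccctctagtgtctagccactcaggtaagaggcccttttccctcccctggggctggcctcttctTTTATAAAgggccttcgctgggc
Krt18: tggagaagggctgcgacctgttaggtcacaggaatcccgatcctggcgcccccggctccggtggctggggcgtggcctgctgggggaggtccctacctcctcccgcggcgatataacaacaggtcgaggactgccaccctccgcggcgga
Krt10: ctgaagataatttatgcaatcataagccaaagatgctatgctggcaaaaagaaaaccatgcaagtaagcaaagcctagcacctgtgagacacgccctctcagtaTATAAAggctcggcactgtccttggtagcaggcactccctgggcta
Lor: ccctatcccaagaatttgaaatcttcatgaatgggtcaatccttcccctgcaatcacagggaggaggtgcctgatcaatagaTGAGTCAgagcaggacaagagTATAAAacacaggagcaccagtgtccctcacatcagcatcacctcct
The motifs searched were TATAAA (core of the TATA box), TGANTCA (the AP-1 site) and the GC box core GGGCGG. Krt8 and Krt10 held the TATA core, in Krt8 overlapping its reverse complement. Lor held both the TATA core and the AP-1 site, and Krt18 held no match in the run shown. In windows from 250 bases before to 50 after the start, the TATA core was found in 13.6% of all 32851 promoters, the AP-1 site in 7.81% and the GC box core in 35.7%. Promoters were found for 14 listed and 60 unlisted genes. The TATA core was present in 6 of the 14 and 30 of the 60, the AP-1 site in 4 and 10, and the GC box core in 2 and 3. Krtdap and Sprr1a, like Lor, held both of the first motifs, and the GC box core was in Dsp and Jup. These matches describe the genes and are not measurements of the libraries.

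Simple keratins were listed at 3 of 5. Krt8, the type II partner, was at 185 FPKM in the control library and 0 in the nucleolin library. Krt18, the type I partner of Krt8, was at 106 FPKM and 0. Krt19, a small type I keratin of glandular and duct epithelium, was at 108 FPKM and 0. These levels lay within a narrow range, from 106 to 185 FPKM, and summed to 399 FPKM. Krt7, a type II keratin of ducts, and Krt20, a keratin of the gut lining, were at 0 in both libraries. Krt8 lies on chromosome 15 from 101996711 to 102004342, and Krt18 on the same chromosome from 102028216 to 102032026, with the type II genes although it encodes a type I keratin.

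Stratified keratins were listed at 7 of 19 and covered a wider range, from 20.8 to 201 FPKM, with a sum of 691 FPKM in the control library and 0 in the nucleolin library. The suprabasal pair was the highest. Krt10 was at 201 FPKM and Krt1 at 169 FPKM in the control library, and both were at 0 in the nucleolin library. Next came the mucosal pair, with Krt13 at 152 FPKM and Krt4 at 87.5 FPKM, again against 0. Krt14, the basal type I keratin, was lower at 29.0 FPKM, and its partner Krt5 and the basal Krt15 were at 0 in both libraries. Krt16 and Krt6b, keratins of stressed and appendage epithelium, were at 31.01 and 20.8 FPKM in the control library, while Krt6a, Krt17, Krt42 and Krt75 were at 0. Krt2, Krt9, Krt77, Krt12, Krt76 and Krt78 were also at 0 in both. Krt6a and Krt6b, and Krt14, Krt16 and Krt17, have closely related sequences, so the assignment of reads among them is uncertain.

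Hair and root sheath keratins gave no value. All 23 in the table were at 0 in both libraries, as were the 5 keratins of other expression (Krt23, Krt24, Krt79, Krt80 and Krt222). Outside the definition, the 52 Krtap genes, which encode the keratin-associated proteins of hair, were likewise at 0 in both. Over all genes of the table, 8.4% were listed in the control and 7.23% in the nucleolin library. At those shares only a few genes in groups of this size would be listed.

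**Figure D2:**
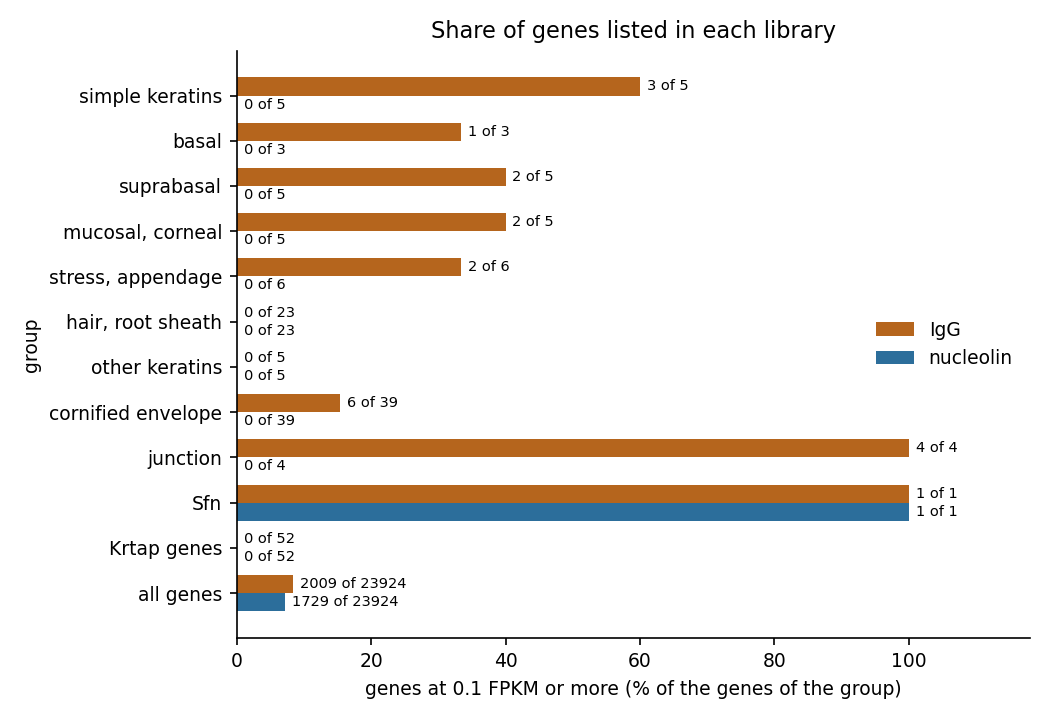
Share of the genes of each group at 0.1 FPKM or more (horizontal axis, percent) in the control library and in the nucleolin library, with the number of genes beside each bar. Simple keratins stand at 3 of 5, cornified envelope genes at 6 of 39 and hair keratins at 0 of 23 in the control library, and all genes of the table at 8.4%.

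Both partners were listed for 4 keratin pairs. On the FPKM scale, which is per length, Krt18 stood at 0.574 times the level of Krt8, Krt10 at 1.19 times that of Krt1, Krt16 at 1.49 times that of Krt6b and Krt13 at 1.74 times that of Krt4. Krt14 was listed without Krt5, and Krt19 without Krt7. By the estimate of the worth of 1 read given below, Krt16 could hold at most 1 read, and Krt6b and Krt14 at most 2 each. The ratio of Krt16 to Krt6b and the listing of Krt14 without Krt5 therefore say little about the balance of partners. Over all keratins, 6 of 28 type I genes were listed with a summed level of 627 FPKM, and 4 of 24 type II genes with 462 FPKM. No keratin of either type was above 0 in the nucleolin library.

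Precursors of the cornified envelope were listed at 6 of 39, from 71.9 to 316 FPKM in the control library. Sprr2a1, a small proline-rich cross-linking protein, was at 316 FPKM in the control library and 0 in the nucleolin library. Its value is the sum of 2 rows, 164 and 152 FPKM, that the table lists as copies of 1 transcript, and the Sprr2 genes are near-identical. Lor, which encodes loricrin, the main protein of the epidermal envelope, was at 188 FPKM and 0. Krtdap, a secreted protein of differentiating keratinocytes, was at 167 FPKM and 0. Lce1a2, a late envelope protein, was at 165 FPKM and 0. Sprr3, a small proline-rich protein of mucosa, was at 143 FPKM and 0. Sprr1a, another family member, was at 71.9 FPKM and 0. Each of the 6 was above Krt14, Krt16 and Krt6b in FPKM, though by the estimate given below Sprr1a could hold at most 2 reads. Among them were 3 of 14 Sprr genes (21.4%) and 1 of 21 Lce genes (4.76%), against 8.4% of all genes in the control library. Ivl, which encodes involucrin, an early envelope protein, and Sbsn, which encodes suprabasin, were at 0 in both libraries. Reads of the Lce1 genes, like those of Sprr2, could belong to a sister copy.

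Junction genes were all listed in the control library, each at a lower level than any listed envelope gene. Jup, which encodes plakoglobin of desmosomes and adherens junctions, was at 26.4 FPKM in the control library and 0 in the nucleolin library. Perp, a desmosomal membrane protein, was at 24.9 FPKM and 0. Cdh1, which encodes E-cadherin of adherens junctions, was at 20.1 FPKM and 0. Dsp, which encodes desmoplakin, the link between desmosomes and keratin filaments, was the lowest listed gene at 4.50 FPKM and 0. Their sum of 75.8 FPKM was under that of any single envelope gene listed other than Sprr1a.

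Sfn was the exception. It encodes stratifin, an epithelial adaptor protein that binds phosphorylated partners, and it lies on chromosome 4 from 133600556 to 133602168. It was at 30.0 FPKM in the control library and 11.9 FPKM in the nucleolin library, a ratio of 0.398. Both values lay on the curves taken as those of 1 read, which Sfn itself helped to set. If each is 1 read, the exact 95% interval of the ratio (Clopper-Pearson) runs from 0.00506 to 31.2, and no difference would be detectable at this depth.

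The worth of 1 read was estimated from genes shorter than 3000 bases with 1 transcript row. In the control library 15 of 103 such genes lay within 0.4% of 1 curve, 42.2 FPKM times kilobases of span after 205 bases were taken off, and no gene lay between 0.5 and 1 of it. The 3 genes lower still were near-identical histone genes, at 0.124 to 0.125 of a read, so reads with several alignments could be split. In the nucleolin library 7 of 82 genes lay on a curve of 16.4, with 235 bases taken off, and 2 lay below it. Sfn was on both curves, but it was itself among the 15 and the 7 genes that set them. If these curves are single reads, the FPKM scale implies about 23700 mapped reads in the control and 61000 in the nucleolin library. On that reading the nucleolin library was the deeper one in total, and 1 control read was worth 2.57 times more FPKM. The totals include the 4 RNAs with the highest values (Rn45s, Lars2, Mir6236 and Mir142b). Without them, all other genes summed to 97649 FPKM in the control and 35976 FPKM in the nucleolin library. The ratio of these sums was 2.71, close to the 2.57 of 1 read. On summed FPKM, the libraries were thus of similar depth outside the 4 RNAs. The genes examined here took 2.30% and 0.0331% of these sums.

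**Figure D3:**
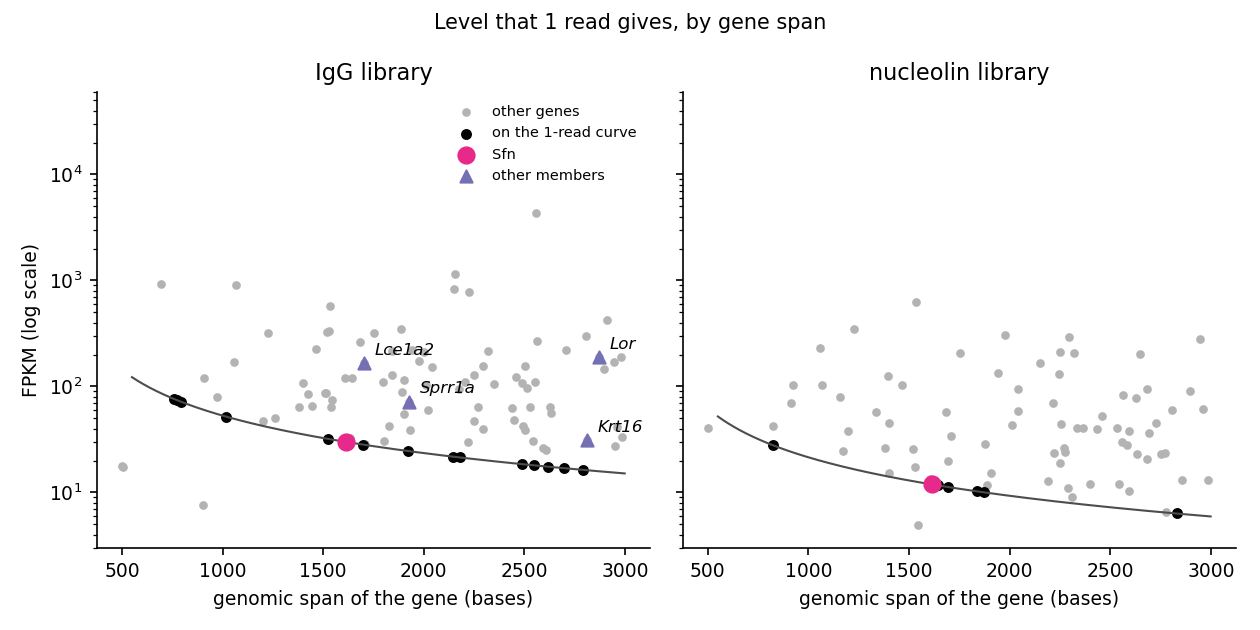
FPKM (log axis) against genomic span in bases for short genes with 1 transcript row in each library, with the curve taken as that of 1 read drawn as a line. Sfn lies on the curve in both panels, and Lce1a2, Lor, Sprr1a and Krt16 lie above it in the control library.

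The same curve limits the reads behind the other genes, because a transcript is no longer than its gene, for reads that were not split. On that reading Krt16 could hold at most 1 read in the control library, and Krt6b, Krt14 and Sprr1a at most 2 each. For 1 read in the control and 0 in the nucleolin library, the exact 95% interval of the FPKM ratio reaches up to 15.2, and for 2 reads up to 2.07. For these genes the 0 in the nucleolin library therefore does not show a lower level. Dsp at 1 read would need a transcript of 9583 bases, Perp one of 1900 and Jup one of 1805, so few reads could also lie behind the junction genes. The higher genes could hold more reads, though Lce1a2 could hold at most 5 and Sprr3 at most 6. A single read would give the level of Krt10 only on a transcript of 415 bases, that of Krt8 on one of 434 and that of Lor on one of 430, and longer transcripts need more reads in proportion. For 5 reads against 0 the interval of the ratio ends at 0.424, and for 10 against 0 at 0.173. Equal read numbers give a ratio of 0.389 on this scale. Thus 5 reads against 0 do not exclude equal read numbers, while the interval for 10 against 0 lies below that ratio. Whether any of these genes held that many reads is not known. Transcript lengths were not used here, so exact read numbers are not given, and all intervals cover counting error only.

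Against the other genes of the control library, these were mostly at upper levels on the FPKM scale. At this depth 1 read on a short transcript already gives a high value, so ranks depend on transcript length as well. By the curve, 1 read would give the level of Krtdap on a transcript of 458 bases, Lce1a2 on one of 461 and Sprr3 on one of 499. Of the 21, 20 were above the median of 18.4 FPKM of all 2009 listed genes, and their own median was 106 FPKM. Krt10 ranked 63rd, Lor 70th and Krt8 73rd. Sprr2a1 ranked 35th by the sum of its 2 copy rows and 88th by the higher row alone, while Sfn ranked 603rd and Dsp 1966th. They made up 11 of the 166 genes at 100 FPKM or more (6.63%), among them the 3 simple keratins, and 20 of the 1599 at 10 FPKM or more (1.25%).

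**Figure D4:**
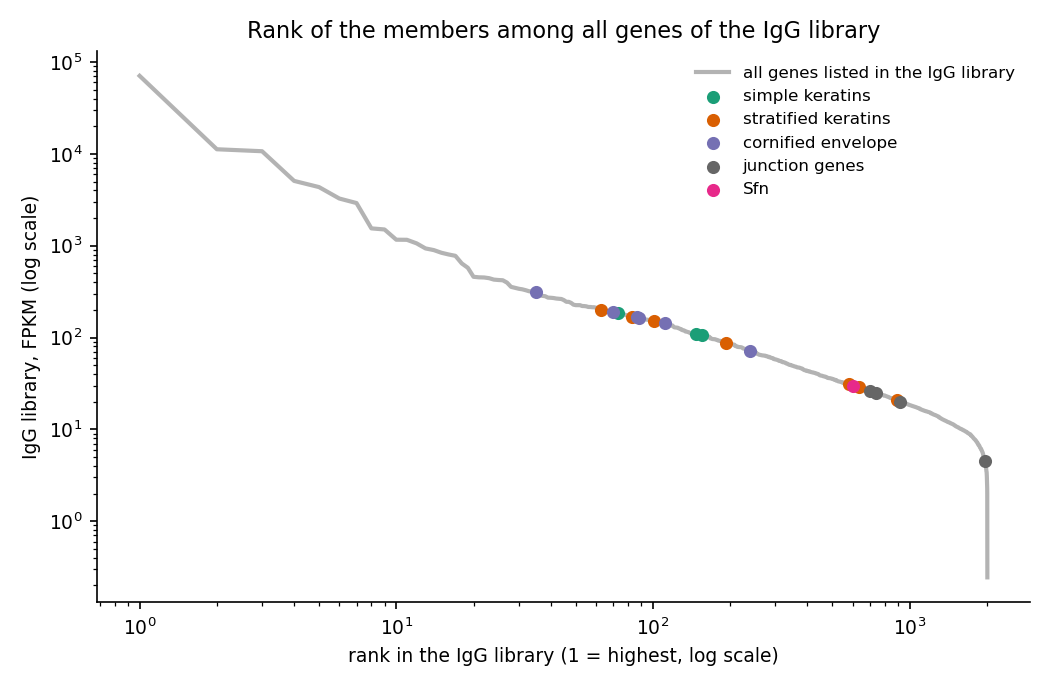
Level in the control library (FPKM, log axis) against rank (log axis) for all 2009 listed genes as a grey line, with the 21 keratin, envelope and junction genes as coloured points. They fall in 2 stretches, from Sprr2a1 at 316 (a sum of 2 copy rows) down to Sprr1a at 71.9 FPKM and from Krt16 at 31.01 down to Cdh1 at 20.1 FPKM, with Dsp apart at 4.50 FPKM.

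On the scale log2((nucleolin FPKM + 1) / (IgG FPKM + 1)), the nucleolin value was lower by 2-fold or more for all 21. Of these, 20 were at 0 in the nucleolin library and passed the minimum of 1 FPKM through the control library alone, so they had to be lower and the count restates which genes were listed. Over the 3194 genes at 1 FPKM or more in a library, 56.7% were lower and 37.8% higher by that measure. The median log2 ratio was -6.74 for these genes, a value set by the 1 FPKM added (-10.05 with 0.1 FPKM and -3.53 with 10 FPKM), and -1.27 for all genes compared. Since a gene with equal reads is already lower on this scale, as Sfn shows with -1.26, the counts of listed genes are given as well. With 1 read set to equal worth, 46.9% of all genes were lower and 40.6% higher. Of the genes listed in the control library, 20 of 21 were below 0.1 FPKM in the nucleolin library, against 73.2% of all genes listed there. At 100 FPKM or more in the control library it was 11 of 11, against 57.2% of all such genes, and at 10 FPKM or more 19 of 20, against 72.1%.

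By position, most of the genes lie in 3 clusters, and the listed ones are not spread evenly within them. The type I keratins on chromosome 11, from 99232761 to 100269951, held 27 of the genes, 5 of them listed in the control library. The keratins on chromosome 15, from 101348315 to 102032026, held 24, also with 5 listed. The Sprr, Lce, Lor and Ivl genes on chromosome 3, from 92080271 to 93019061, part of the epidermal differentiation complex, held 37, with 5 listed. Apart from Krt10, the listed keratins of chromosome 11 lie from 100117327 to 100248902. The listed genes of the chromosome 15 cluster lie from 101676023 to 102032026, and those of chromosome 3 from 92080271 to 92670315. No other cluster gene was listed in either library, of 36 on chromosome 11, 9 on chromosome 15 and 6 on chromosome 3. Of the 36, 21 were Krtap genes, already given as 0. Over all genes of the table, 8.4% were listed in the control and 7.23% in the nucleolin library. At those shares only a few of these neighbours would be listed.

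Other genes of epithelial differentiation were also listed more often in the control library. The control share was 17.4% of further cornification genes, 28.6% of further junction genes and 30.8% of epithelial regulators, against 8.4% of all genes. In the nucleolin library it was 0%, 10.7% and 7.69%, against 7.23% of all genes. The junction genes and regulators were thus not below the background share there. Of 23 further cornification genes, 4 were listed in the control library and 0 in the nucleolin library. They were Cnfn (cornifelin of the envelope, 129 FPKM), Asprv1 (a protease that processes filaggrin, 63.6 FPKM), Dmkn (dermokine, 23.8 FPKM) and Spink5 (a protease inhibitor of the skin, 18.5 FPKM). Tgm1, the transglutaminase that cross-links the envelope, and its substrates Evpl and Ppl were at 0. Of 28 further desmosome and junction genes, 8 were listed in the control and 3 in the nucleolin library. The desmosomal genes Pkp2 (15.7 FPKM), Dsg1b (13.2 FPKM), Dsc2 (10.0 FPKM) and Dsc1 (8.87 FPKM) were at 0 in the nucleolin library. The catenin gene Ctnnd1 (8.72 and 3.41 FPKM) and the linker gene Plec (5.77 and 2.16 FPKM) were in both, and Ctnnb1, which encodes beta-catenin, was in the nucleolin library alone (5.15 FPKM). Of 13 epithelial regulators, Klf4, which macrophages also express, was at 59.5 FPKM in the control and 5.84 FPKM in the nucleolin library. The splicing regulators Esrp2 and Esrp1 were at 17.1 and 11.2 FPKM and Grhl1, a grainyhead factor, at 14.6 FPKM in the control library, each against 0. Trp63, the regulator of stratified epithelium, was at 0 in both.

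Markers of other tissues stood in the control library beside these genes. Of 20 gastric and pancreatic markers, 16 were listed there and 0 in the nucleolin library, with values from 10.6 to 5078 FPKM and a sum of 21580 FPKM, and Pnlip, Cel, Cpa1 and Prss1 were at 0. Of 10 fibroblast and smooth muscle markers 7 were listed, from 15.8 to 214 FPKM and with a sum of 387 FPKM, and of 13 intestinal and glandular markers 4, from 20.7 to 215 FPKM and with a sum of 305 FPKM, all against 0. Epcam, a general marker of simple epithelium, was at 0 in both libraries. Of 17 squamous markers 9 were listed, with a sum of 1209 FPKM, but 13 of the 17 are themselves among the keratin and envelope genes, and of the 4 others (Dsc3, Dsg3, Pkp1 and Trp63) 0 were listed in either library. Macrophage markers were in both libraries. In the control library 6 of 11 were listed with a sum of 777 FPKM, and in the nucleolin library 10 of 11 with a sum of 677 FPKM. These sums do not compare read numbers, because by the estimate above a control read was worth 2.57 times more FPKM. With reads set to equal worth, the sum of these markers was higher in the nucleolin library. Ptprc, a defining leukocyte marker, was at 0 in both, and Csf1r and Lyz2 were at 0 in the control library. The part of the markers of other cell types in the keratin result was not tested. Both libraries are labelled as the same macrophage line. Where these transcripts came from, and whether cell number or RNA per cell differed, cannot be told from such libraries.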

How the data were processed

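The authors deposited FPKM values for 33529 RefSeq transcript rows in 1 table, with a column for each antibody, per the file headers. The mm10 build, FastQC 0.10.0 and Trimmomatic 0.32 are named in the submitters' processing notes. Which aligner and quantifier were run, and how strand and multiple alignments were handled, is not stated in the labels or the file. The title of the second library does not name its antibody; it was assigned to nucleolin from the design text of the series and the NCL in its column name.

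Rows were summed per symbol (56 rows without a symbol were left out), and gene positions came from RefSeq GRCm38.p6, where 95 of the 96 genes were matched. A gene counted as listed at 0.1 FPKM, and was compared at 1 FPKM in a library, after 1 FPKM was added to both values (the pseudocount), so changes of low genes are understated. The worth of 1 read was taken from the curve that held more short genes than any other tried on a grid (15 of 103 and 7 of 82). The estimate of the worth of 1 read and the 2-fold comparison were tested on simulated data. The comparison was simulated without counting error and without genes at 0, so that test does not cover genes with few reads. Every gene of the definition above 0 is named, whatever its value. The genes and lists were chosen with earlier results of these data known. Python 3.11.15, pandas 2.3.3, numpy 2.4.6, scipy 1.17.1 and matplotlib 3.10.9 were used.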

Additional observations from a re-analysis of the deposited data

How the results depend on the processing

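With 1 library per antibody and very few reads, a gene at 0 may have been missed, and neither spread nor a test is available. No paired analysis was possible because each group had 1 library. The number listed in the control library was 20 or 21 at floors from above 0 to 10 FPKM, and 1 in the nucleolin library at each. Between 19 and 21 genes were at least 2-fold lower and 0 higher under the 8 alternatives of scale, pseudocount, minimum and row choice, but 20 of them are at 0 in the nucleolin library, so the counts say nothing about stability. The median log2 ratio of the members of -6.74 moved to -10.05 with a pseudocount of 0.1, to -3.53 with a pseudocount of 10 and to -5.47 when centred on all genes. Taking the highest row per symbol lowered the control sum from 2246 to 2094 FPKM, through Sprr2a1 and Sprr3. The nucleolin sum of 11.9 FPKM became 32.3 when rescaled to all other genes and 30.6 with 1 read of equal worth. The log2 ratio of Sfn of -1.26 turned to 0.0054 when centred, 0.11 when rescaled to all other genes and 0.032 with 1 read of equal worth, and the median of all genes compared of -1.27 turned to 0.076 and 0.0074 under the latter scalings, which multiply the nucleolin values by 2.71 and 2.57. At a minimum of 10 FPKM the median of all genes compared was -3.70, and that of the members -6.76.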

Other observations

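Intermediate filament genes outside the keratins did not share one side. Of 16 such genes, Des, which encodes desmin of muscle, was at 29.5 FPKM in the control library and 0 in the nucleolin library. The nuclear lamin gene Lmnb1 was at 16.0 and 6.29 FPKM, and the lamin gene Lmna at 0 and 17.9 FPKM. Vim, which encodes vimentin, the filament protein of leukocytes and mesenchyme, was at 0 in both. Among genes known as partners of keratin filaments, Trim29 and Fam83h were at 16.1 and 9.75 FPKM in the control library and 0 in the nucleolin library, and Pnn, a nuclear speckle protein that also occurs at desmosomes, was at 0 and 10.2 FPKM.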
